A study of Mus musculus with 4 samples.

Results

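Imprinted genes are expressed mainly from the chromosome inherited from one parent. Open chromatin was described at 32 of them, chosen by name as classical mouse imprinted genes, many with their control regions, of 55413 genes annotated in GENCODE M21 on the mm10 build. For each gene the promoter was 1 kb on either side of every annotated transcription start site (TSS), and the locus was the gene body with 10 kb on each side. The assay was ATAC-seq, where adapters are placed by a transposase into DNA it can reach, in T-helper 17 (Th17) primary cells of mouse strain C57BL/6NJ. Th17 cells are CD4 T cells that make interleukin 17. The labels give 4 biological replicates of this 1 group, all carrying the same donor identifier, no treatment or control group, and age and developmental stage as unknown. The spread between replicates may therefore be technical.

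Each replicate has its own list of regions called by the authors, 83904, 85127, 85293 and 84137 regions in replicates 1 to 4 on the autosomes, X and Y. Of these, 101, 99, 108 and 105 lay in the 32 imprinted loci. Merged by any overlap, they gave 124 regions in the loci, of which 83 were found in all 4 replicates and are called shared. The lists hold no read counts, so depth is unknown and no counting interval can be given. A promoter is called open where every replicate's own list has a region overlapping it. The deposited signal value, the authors' enrichment per region, is not normalised between replicates, so it was turned into a percentile among the regions of the same replicate. Promoters of all 6 T-cell markers examined (Cd3e, Cd4, Il17a, Il17f, Il23r and Ccr6) were open, and 1 of 7 markers of B, myeloid, CD8 or NK cells was. That gene was Cd8b1, at percentile 61.3 ± 2.43 (SD, n = 4), and Klrb1c had a region in 3 replicates. Over all annotated genes 34.7% had an open promoter. In mean percentile Cd8b1 ranked above Il17a at 18, Cd4 at 21.1 and Il17f at 58.8. It ranked below Ccr6 at 64.5, Cd3e at 67.4 and Il23r at 68.

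Most imprinted genes lie in clusters governed by an imprinting control region, a stretch of DNA that is methylated in only one of the germ lines and keeps that difference after fertilisation. The zinc finger protein ZFP57 with TRIM28 protects the methylated copy, and the insulator protein CTCF binds the unmethylated maternal copy of the H19 control region. At several clusters the control region is the promoter of a long noncoding RNA that silences its neighbours on the same chromosome. The region lists are unphased and the strain is inbred, so a region open on one parental chromosome cannot be told apart from a weaker region on both.

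The sequences at the H19 control region are shown first, because this is where a control region was open beside a promoter with no region. H19, a maternally expressed noncoding RNA, lies at chr7:142575529-142578143 on the minus strand. Each line gives 100 bases of GRCm38, 5′ to 3′, and the capitals mark a match on either strand to GNGGNGGCA, the core of the CTCF sites of this control region.
H19 control region window 1, chr7:142580264-142580363, + strand: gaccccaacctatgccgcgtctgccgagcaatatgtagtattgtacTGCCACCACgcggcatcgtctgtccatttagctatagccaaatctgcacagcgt
H19 control region window 2, chr7:142580719-142580818, + strand: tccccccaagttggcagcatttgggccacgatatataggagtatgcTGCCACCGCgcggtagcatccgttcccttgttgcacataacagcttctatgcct
H19 control region window 3, chr7:142581989-142582088, + strand: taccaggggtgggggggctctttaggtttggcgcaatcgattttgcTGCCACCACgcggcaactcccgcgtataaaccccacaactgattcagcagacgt

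These were the 3 matches to that string between 2 and 4 kb upstream of the H19 start site, and all of them lay inside open regions. The first open region, chr7:142579939-142581192, had signal 9.61, 11.5, 9.2 and 10 in replicates 1 to 4, a mean percentile of 75.7 ± 3.44 (SD, n = 4). The second, chr7:142581571-142582096, had signal 4.22, 4.8, 4.66 and 4.98, a mean percentile of 35 ± 4.33 (SD, n = 4). Both were called in every replicate. The summit of the first region lay between its 2 matches, 225 bp from one and 230 bp from the other, and the summit of the second lay 196 bp from its match. The string is short: 7.19% of all shared regions held it within 300 bp around the summit and 21.1% within 1000 bp. A match describes letters and does not show that CTCF was bound.

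The H19 promoter itself had no region in any replicate, and the nearest shared region lay 1796 bp away. Igf2, the paternally expressed growth factor that shares the control region and its enhancers with H19, had an open promoter of modest signal, 4.03, 4.85, 5.23 and 4.53, at percentile 34.7 ± 7.11 (SD, n = 4). That region lay at start sites inside the gene, and with the gene's 5′ end alone Igf2 was not open. Between 7 and 11 kb downstream of the H19 start site, where its endodermal enhancers lie, there was 1 shared region, at percentile 32.6 ± 4.88 (SD, n = 4). The other control region that lies away from a promoter, the intergenic IG-DMR of the Dlk1-Meg3 cluster, gave a contrast. Between 10 and 16 kb upstream of Meg3 there was 1 region, in replicate 2 only, with signal 2.27 at percentile 2.6.

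**Figure D1:**
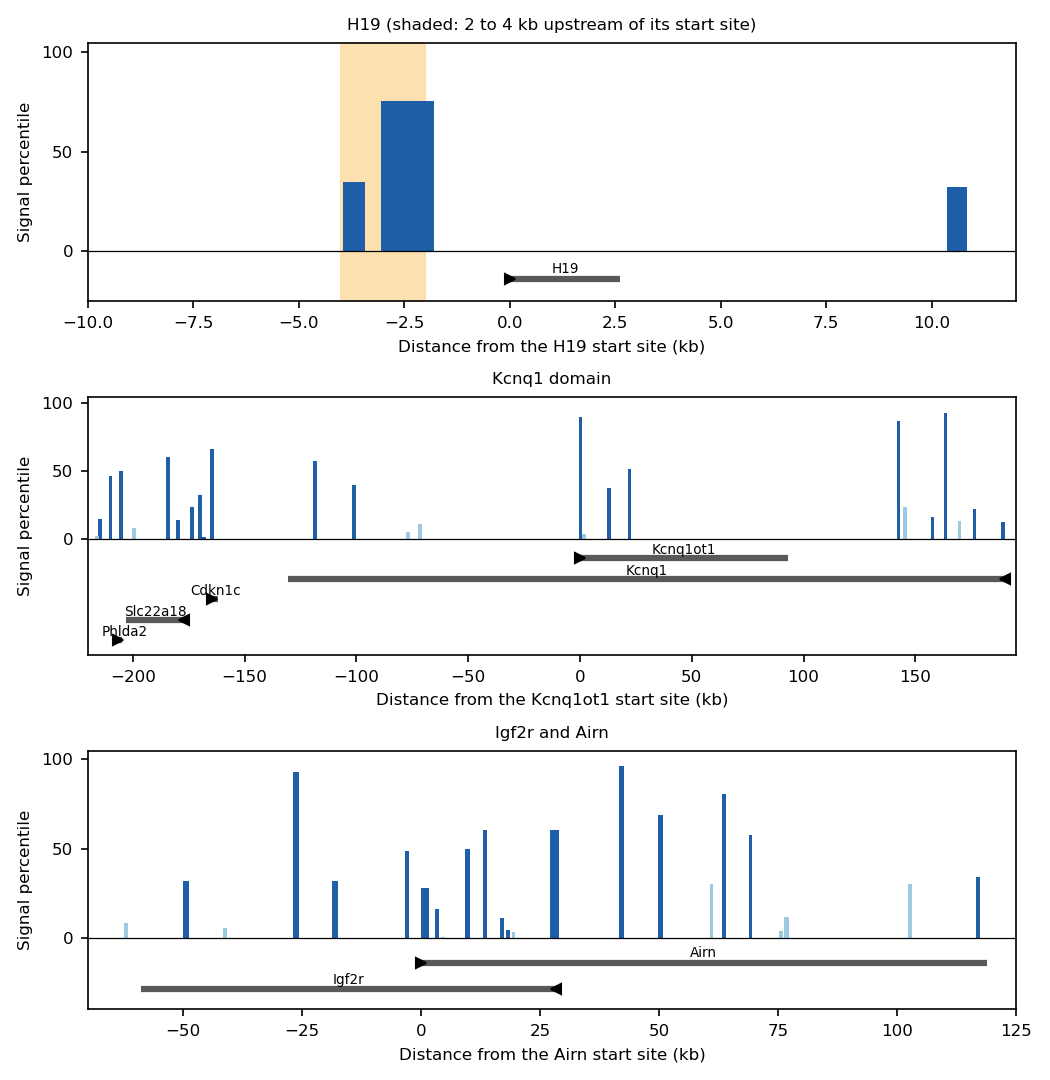
Regions around H19, across the Kcnq1 domain and around Igf2r and Airn, by distance in kb from the start site named on each x axis, drawn in that gene's direction of transcription; bar height is the mean signal percentile over the replicates that have the region, dark bars are in all 4 replicates and pale bars in fewer, grey lines are genes and arrowheads their start sites. Only regions within 10 kb of a member gene are drawn; the 2 dark bars in the shaded H19 control region stand beside an H19 start site with none.

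Over all 32 genes, 21 had an open promoter, 65.6% of them, against 34.7% of all annotated genes and 64.1% of protein-coding genes. Meg3 had a promoter region in 3 replicates and Rian in 1. The remaining 9 had none in any replicate: H19, Zim1, Snrpn, Ndn, Magel2, Mkrn3, Mirg, Rtl1 and Nap1l5. In each replicate 22 members had a promoter region. The share is close to that of protein-coding genes, though 7 of the 32 members are noncoding RNA genes. The count says nothing particular about the imprinted genes as a list.

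The open promoters of the members had a lower median rank than those of all genes. Of the 21 open promoters 12 had a mean signal percentile above 50, which is 57.1%, where 80.5% of the 19253 open promoters of all genes did. The median percentile of the open members was 52.4, with quartiles at 34.7 and 81.5, against 76.4 for all open promoters, with quartiles at 56.5 and 89.1. Ranked by the deposited −log10 q in place of signal, the medians were 70 and 83.5, or 60.1 and 83.2 where the region strongest in signal was kept. Taken over all genes, open or not, 12 of 32 members had a promoter above percentile 50, which is 37.5%, between the 28% of all annotated genes and the 54.3% of protein-coding genes. These are descriptions of a list chosen by name, with no test.

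**Figure D2:**
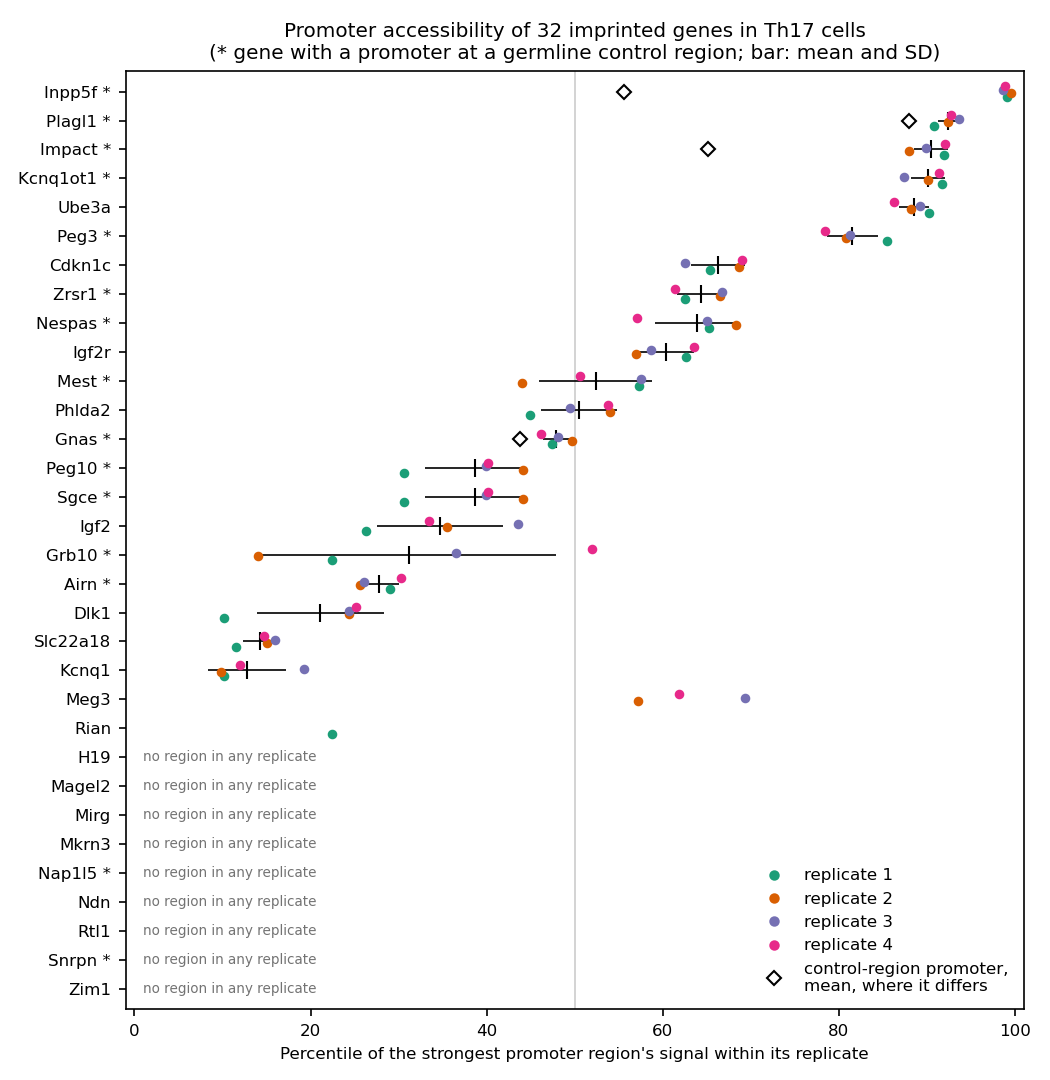
Signal percentile of the strongest promoter region of each of the 32 genes within each replicate; coloured points are the 4 replicates, the black tick and line are the mean and SD where all 4 have a region, asterisks mark genes with a promoter at a germline control region, and open diamonds give that promoter's mean where another promoter of the gene was stronger. Inpp5f lies at 99 and Kcnq1 at 12.8, 9 genes have no region in any replicate, and Grb10 spreads most between replicates.

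CpG content separated the open members from the others about as it does across the genome. The CpG observed to expected ratio was taken over 1000 bp around each start site, and the highest value of a gene was used. Of 20 members with a ratio of at least 0.6, 18 were open, beside 90.7% of all such genes. Mkrn3, which encodes a ubiquitin ligase, and Nap1l5, a histone chaperone-like gene, were the 2 that were not, with ratios of 0.71 and 0.82. Of 12 members with a lower ratio, 3 were open, beside 15.8% of all such genes: Kcnq1ot1 at 0.45, Slc22a18 at 0.24 and Airn at 0.59. Taken over the open regions themselves, the ratio was 0.64 at Kcnq1ot1, 0.16 at Slc22a18 and 0.67 at Airn. Among CpG-rich genes too the open members ranked lower, with a median percentile of 56.4 in 18 members and 80.9 in 12694 genes.

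**Figure D3:**
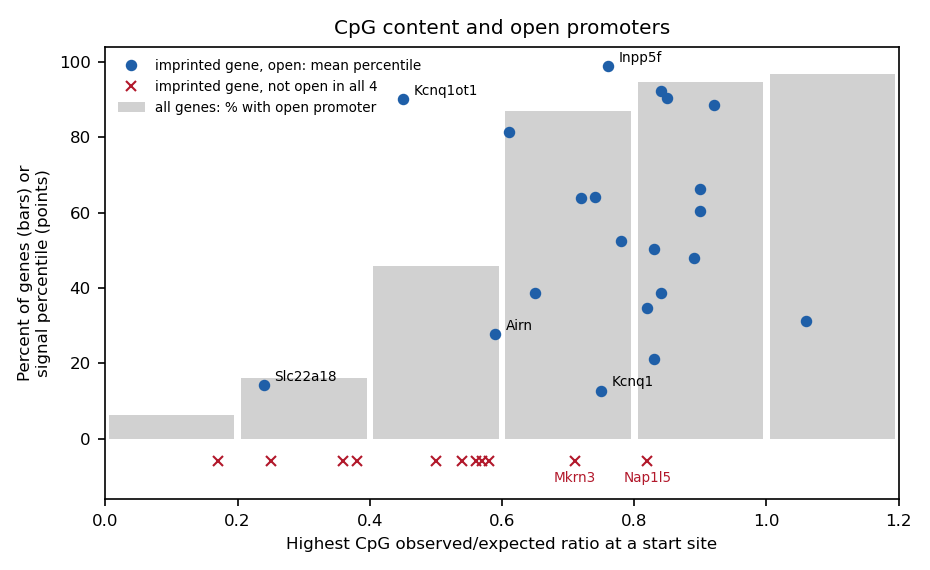
Each gene's highest CpG observed/expected ratio on the x axis; grey bars give the percent of all annotated genes with an open promoter in each step of the ratio, blue points the mean signal percentile of open imprinted genes, and red crosses the imprinted genes not open in all 4 replicates. The bars rise from 6.25% to 96.8%, Mkrn3 and Nap1l5 are the crosses above a ratio of 0.6, and Kcnq1ot1 is the high point below it.

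Of 15 genes with a promoter that is itself a germline control region, 13 were open, 86.7% of them. Their median CpG ratio was 0.76, and the share was close to the 90.7% of all genes with a ratio of at least 0.6. Of the 17 other members 8 were open, 47.1%, with a median CpG ratio of 0.58. The 13 genes held 12 distinct regions, because Peg10 and Sgce are divergent neighbours under the same region. The sequences are shown for 5 of them, because these are the elements the clusters turn on. Impact aside, they are the highest in signal at the control-region start site that have enough sequence outside untranslated regions to print. Impact, at mean percentile 65.1, ranked above Nespas and Inpp5f but is not printed. Its region held 2 ZFP57 hexamers within 300 bp around the summit. Each line gives up to 300 bases of GRCm38 around the mean summit. Capitals mark TGCCGC, the hexamer that ZFP57 binds when its CpG is methylated, AANATGGC of the factor YY1, and CCAAT of the factor NFY, each on either strand.
Kcnq1ot1, chr7:143296488-143296787, + strand: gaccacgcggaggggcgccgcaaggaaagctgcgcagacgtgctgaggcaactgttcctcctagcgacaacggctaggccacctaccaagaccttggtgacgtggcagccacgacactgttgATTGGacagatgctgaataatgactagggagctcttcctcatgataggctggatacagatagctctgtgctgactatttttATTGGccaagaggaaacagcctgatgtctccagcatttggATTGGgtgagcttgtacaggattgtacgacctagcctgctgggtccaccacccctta
Plagl1, chr10:13090634-13090787, + strand: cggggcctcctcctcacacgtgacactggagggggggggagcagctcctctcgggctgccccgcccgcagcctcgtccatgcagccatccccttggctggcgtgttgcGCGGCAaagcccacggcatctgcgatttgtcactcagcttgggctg
Peg3, chr7:6729416-6729715, + strand: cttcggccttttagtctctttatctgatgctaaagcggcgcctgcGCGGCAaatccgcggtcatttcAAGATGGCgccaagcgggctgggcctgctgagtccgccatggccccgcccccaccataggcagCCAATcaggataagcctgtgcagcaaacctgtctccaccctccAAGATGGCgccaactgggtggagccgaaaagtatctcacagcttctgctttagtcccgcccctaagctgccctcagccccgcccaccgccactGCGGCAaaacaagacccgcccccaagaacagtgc
Nespas, chr2:174295392-174295691, + strand: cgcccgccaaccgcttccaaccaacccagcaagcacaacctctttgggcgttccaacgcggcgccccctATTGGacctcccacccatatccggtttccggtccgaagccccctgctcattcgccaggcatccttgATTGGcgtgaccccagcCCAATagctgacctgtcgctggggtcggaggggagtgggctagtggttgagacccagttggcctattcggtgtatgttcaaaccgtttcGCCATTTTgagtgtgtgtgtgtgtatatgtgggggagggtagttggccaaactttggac
Inpp5f, chr7:128688140-128688439, + strand: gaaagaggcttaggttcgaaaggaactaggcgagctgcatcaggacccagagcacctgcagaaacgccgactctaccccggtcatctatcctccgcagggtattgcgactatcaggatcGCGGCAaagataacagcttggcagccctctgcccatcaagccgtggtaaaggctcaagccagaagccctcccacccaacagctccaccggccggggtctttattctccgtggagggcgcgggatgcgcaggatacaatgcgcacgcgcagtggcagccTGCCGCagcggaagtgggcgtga

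Peg3 encodes a paternally expressed zinc finger protein, and its region held 2 ZFP57 hexamers and 2 YY1 strings in these 300 bases. YY1 is known to bind this region. The Kcnq1ot1 window held no ZFP57 hexamer and 3 CCAAT strings. Inpp5f held 2 ZFP57 hexamers, and Nespas held 1 YY1 string and 3 CCAAT strings. Of the 12 control-region promoters, 6 had the ZFP57 hexamer within 300 bp around the summit, 50% of them. The Gnas region is 1 of the 6, and its summit lay 2771 bp from the exon 1A start site and 54 bp from a main Gnas start site. Without it the count was 5 of 11, 45.5%. The share was 29.2% of 9028 shared start-site regions with a region CpG ratio of at least 0.6, 19.1% of all 19596 shared regions within 1 kb of a start site, and 8.26% of all 68696 shared regions. Within 1000 bp 10 of the 12 had it, and 9 of 11 without Gnas, beside 57.4% of the CpG-rich start-site regions. Within 300 bp, AP-1 strings (TGANTCA), typical of distal T-cell elements, were in 1 of the 12, beside 4.03% of CpG-rich start-site regions and 32.3% of all shared regions. CCAAT strings were in 4 of the 12, 33.3%, beside 34.6% of CpG-rich start-site regions and 30.6% of all shared regions. YY1 strings were in 2 of the 12, beside 9.61% and 5.15%.

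The control-region promoters varied in width. Their median was 1736 bp, against 1298 bp for shared start-site regions and 888 bp for all shared regions, and 4 of the 12 (Inpp5f, Grb10, Plagl1 and Zrsr1) were narrower than the median start-site region. They were rich in CpG: their median CpG ratio was 0.75 against 0.57 and 0.23. The widest was the 4161 bp region over exon 1A and the main promoter of Gnas, at percentile 99.9 of width among shared start-site regions. Peg10, a retrotransposon-derived gene needed in the placenta, was unusual in sequence. The capitals in its window mark a 12-base unit, the most frequent in these 300 bases.
Peg10, chr6:4747969-4748268, + strand: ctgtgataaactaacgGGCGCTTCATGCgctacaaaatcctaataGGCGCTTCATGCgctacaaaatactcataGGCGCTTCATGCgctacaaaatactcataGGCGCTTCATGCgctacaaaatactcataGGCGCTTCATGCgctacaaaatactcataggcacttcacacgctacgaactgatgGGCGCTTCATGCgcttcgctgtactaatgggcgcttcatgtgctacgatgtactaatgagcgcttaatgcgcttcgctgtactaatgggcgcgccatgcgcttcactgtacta

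The unit occurred 6 times, and 2.93% of all shared regions held any 12-base unit as often around their summit. Short reads can be hard to place in such repeats, and the part this played in the Peg10 value was not tested. The region had signal 4.33, 5.7, 4.85 and 5.1, at percentile 38.7 ± 5.75 (SD, n = 4), and its summit lay 813 bp inside Peg10. Sgce, the sarcoglycan gene on the other strand, has the same values because it shares the region.

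**Figure D4:**
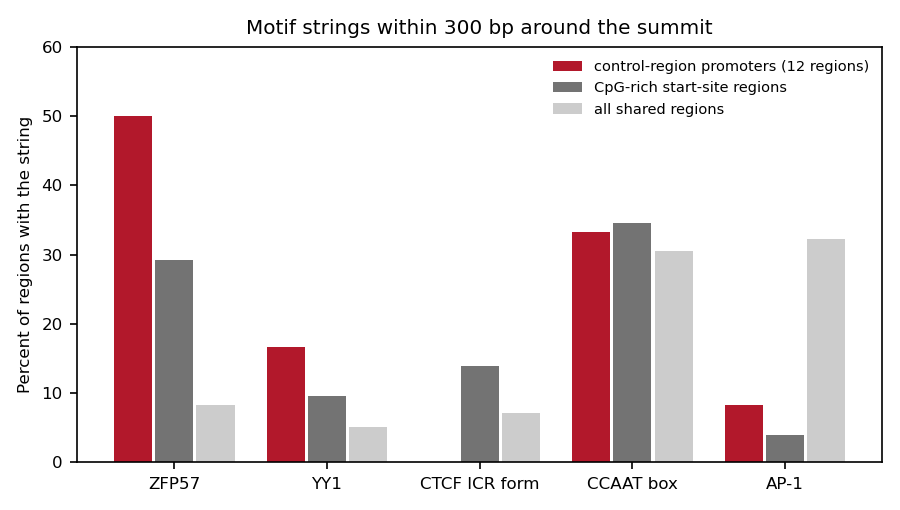
Percent of regions with each motif string within 300 bp around the mean summit, for the 12 control-region promoters, for shared start-site regions with a CpG ratio of at least 0.6, and for all shared regions. The ZFP57 hexamer is in 50%, 29.2% and 8.26% of them, and AP-1 in 8.33%, 4.03% and 32.3%.

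Among the silencing noncoding RNAs, Kcnq1ot1 and Airn differed in rank against the genes they overlap. Kcnq1ot1, transcribed from the unmethylated paternal control region inside an intron of Kcnq1, had signal 14.2, 14, 12.2 and 13.5, at percentile 90.1 ± 1.96 (SD, n = 4). Kcnq1, a potassium channel gene, had signal 2.88, 2.88, 3.32 and 2.97, at percentile 12.8 ± 4.43 (SD, n = 4). The Kcnq1ot1 promoter ranked higher in every replicate, by 81.5, 80.4, 68.1 and 79.3 percentile points, a mean of 77.3 ± 6.23 (SD, n = 4). With 4 replicates a two-sided exact sign-flip permutation test cannot give a p below 0.125, so no p is used for any pair.

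Airn, the antisense RNA that silences the maternally expressed receptor gene Igf2r, went the other way. Its promoter had signal 4.23, 4.06, 3.81 and 4.27, at percentile 27.8 ± 2.28 (SD, n = 4). That of Igf2r, whose product carries insulin-like growth factor 2 to lysosomes, had signal 7.89, 7.26, 6.93 and 7.9, at percentile 60.4 ± 3.17 (SD, n = 4). Airn was lower in every replicate, by a mean difference of -32.6 ± 1.03 (SD, n = 4). By −log10 q at the same regions the difference was -12.4, so its size depended on the ranking. Nespas, antisense at the Gnas locus, had signal 8.29, 9, 7.86 and 6.98 at percentile 63.9 ± 4.79 (SD, n = 4). It ranked 16 ± 3.53 points (SD, n = 4) above the strongest Gnas promoter of each replicate, which was not the same promoter throughout. That was the main promoter in replicates 1 and 3, a start site at chr2:174344650 in replicate 2, and the Nesp promoter, described below, in replicate 4. By −log10 q at the regions strongest in signal the difference was 19.4, and against the Gnas promoter best by −log10 q it was 0.885.

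Kcnq1 domain genes besides these were all open. Cdkn1c, which encodes a cell-cycle inhibitor, had signal 8.29, 9.08, 7.47 and 8.72, at percentile 66.3 ± 3.07 (SD, n = 4). Phlda2, a regulator of placental growth, lay at 50.5 ± 4.31 (SD, n = 4). Slc22a18, a transporter gene with a CpG-poor promoter, lay at 14.3 ± 1.97 (SD, n = 4); its region touched the window's edge, with the summit 1308 bp from a start site. All 3 are maternally expressed genes under Kcnq1ot1 control.

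Several genes had more than 1 open promoter, and the control-region promoter was not always the strongest. Inpp5f, an inositol phosphatase gene, had its biallelic upstream promoter at signal 17.9, 18.8, 16.3 and 16.7, percentile 99 ± 0.38 (SD, n = 4), the highest of all members. The start site of its imprinted short transcript, inside the gene, had 6.88, 7.09, 6.35 and 7.1, percentile 55.6 ± 1.76 (SD, n = 4). Plagl1, a paternally expressed zinc finger gene, had both promoters high, at 92.4 ± 1.17 for the upstream start site and 88 ± 2.57 for the control region (SD, n = 4). Impact, a translation regulator gene on chr18, had 90.4 ± 1.93 upstream and 65.1 ± 1.57 at the control region (SD, n = 4). In all 3 the upstream promoter ranked higher in the mean by signal. By −log10 q the gap at Impact nearly vanished, with 79.3 upstream and 78.4 at the control region. The start sites were assigned to control regions from general knowledge after the values had been seen.

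Gnas, which encodes the stimulatory G protein alpha subunit, has promoters with opposite imprints. The Nesp promoter, active on the maternal chromosome, had signal 3.75, 4.49, 5.51 and 5.71, at percentile 36.6 ± 11.9 (SD, n = 4). The single start site of the paternal XL transcripts, at chr2:174297859, had a region in replicates 1 and 3 only, with signal 2.4 and 2.27. The exon 1A and main Gnas promoters share the broad region described above, at percentile 45.8 ± 2.33 (SD, n = 4). So 2 of these 3 promoter groups were open in all 4 replicates, and the XL group was not. A further annotated start site near the gene's end, at chr2:174344650, was open at percentile 38.3 ± 8.64 (SD, n = 4). Another, at chr2:174341704, had no region in any replicate.

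The remaining paternally expressed genes with open control-region promoters were Peg3, Zrsr1 and Mest. Peg3 had signal 12.4, 11.6, 10.8 and 10.4, at percentile 81.5 ± 2.88 (SD, n = 4), and its neighbour Usp29 starts in the same region. Zim1, the maternally expressed neighbour of Peg3, had no promoter region in any replicate, and the nearest shared region was 31959 bp away. Zrsr1, a splicing-factor retrogene inside an intron of Commd1, had signal 7.87, 8.73, 8.13 and 7.6, at percentile 64.3 ± 2.72 (SD, n = 4). It ranked below Commd1 in every replicate, by a mean difference of -29.5 ± 3.29 (SD, n = 4). Mest, a hydrolase gene, lay at 52.4 ± 6.41 (SD, n = 4). Grb10, a brake on growth-factor signalling, spread most, with signal 3.75, 3.18, 4.59 and 6.37 and percentile 31.2 ± 16.7 (SD, n = 4). Replicates 1 and 2 were at 22.4 and 14 and replicates 3 and 4 at 36.5 and 52, so its rank among the members is not fixed by these data. The region names of replicates 1 and 2 carry a different tag from those of 3 and 4, and the part this had was not tested.

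The other 2 control-region promoters, those of Snrpn and Nap1l5, had no region. Nap1l5 is a retrogene inside an intron of Herc3, and Herc3 itself was open at percentile 37.7 ± 1.24 (SD, n = 4). No shared region lay within 10 kb of Nap1l5.

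The Snrpn-Ube3a cluster, the mouse counterpart of the Prader-Willi and Angelman syndrome region, held almost no called region apart from the Ube3a promoter. Ube3a encodes a ubiquitin ligase that is imprinted in neurons. Its promoter had signal 13.7, 13.4, 12.7 and 12.2, at percentile 88.5 ± 1.67 (SD, n = 4). Between the end of Ube3a and the end of Mkrn3, 3109 kb, there was 1 merged region, found in replicate 3 only, and no shared region. This stretch holds Snrpn, which encodes a small nuclear ribonucleoprotein, and Ndn, Magel2 and Mkrn3, all paternally expressed. At the Snrpn control-region start site the nearest region of any replicate was 684300 bp away in the closest replicate and 775397 bp in the farthest.

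Stretches this empty occurred elsewhere too. Of 834 windows of the same length laid end to end over the genome, leaving out those with over 10% unknown bases, 62 held at most 1 merged region, 7.43% of them. In the stretch itself 1.61% of bases were unknown. The deposited region names hold the word masked without saying what was masked, and the part this had in the emptiness of the stretch was not tested.

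The Dlk1-Meg3 cluster was open at its paternal end and sparse elsewhere. Dlk1, a paternally expressed Notch ligand homologue, had signal 2.88, 3.94, 3.7 and 3.9, at percentile 21.1 ± 7.22 (SD, n = 4). Meg3, a maternally expressed noncoding RNA, had no region in replicate 1 and signal 7.28, 8.55 and 7.64 in replicates 2 to 4, at percentiles 57.2, 69.3 and 61.8. That region, chr12:109542801-109543152, lay more than 1 kb from the gene's 5′ end at chr12:109541001. Its summit was 747 bp from a start site inside the gene. So where called, the Meg3 region ranked above Dlk1, and its absence from 1 list alone keeps it from being counted as open. Rian, a snoRNA host, had a region in replicate 1 only, with signal 3.75. Rtl1, a retrotransposon-derived gene, and Mirg, a microRNA host, had none at a promoter.

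Counted over whole loci, 9 of the 32 members had no shared region, which is 28.1%, where 43.5% of all genes and 23.1% of protein-coding genes had none. The median member had 3 shared regions over its locus, against 1 for all genes and 2 for protein-coding genes, but the members' genes are long, with a median of 25.4 kb against 3.33 and 17.4 kb. Per 100 kb of locus the medians were 3.21, 3.36 and 5.34. Clusters ranged from 16.3 shared regions per 100 kb at Zrsr1 and 10.5 at Inpp5f to 1.58 at Dlk1-Meg3, 1.26 at Peg3, 0.0311 at Snrpn-Ube3a and none at Nap1l5, beside 2.52 over the genome. The Zrsr1 locus is small and holds the promoter of Commd1, so its density is in part that of its host.

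**Figure D5:**
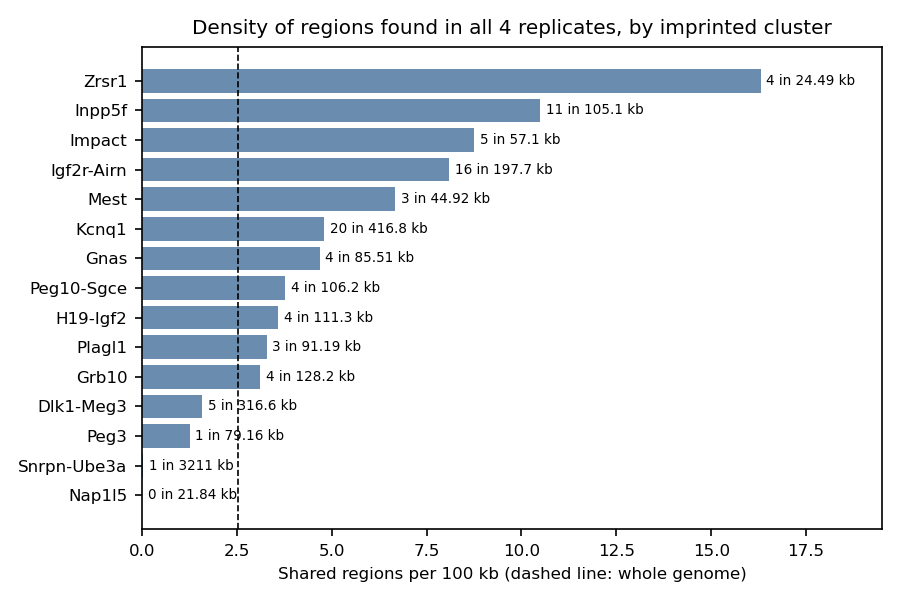
Shared regions per 100 kb in each of the 15 imprinted clusters, from the outermost member genes with 10 kb on each side; labels give the number of shared regions and the span, and the dashed line is the whole genome at 2.52. Zrsr1 at 16.3 is highest, and Snrpn-Ube3a with 1 region in 3211 kb and Nap1l5 with none are lowest.

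The strongest regions of the loci away from promoters lay above most of the imprinted promoters. They were picked by this same rank, so high values were given by the choice. A region in an exon of Sgce, chr6:4708728-4709790, lay at percentile 98.9 ± 0.321 (SD, n = 4), 2827 bp from a start site. An intron region of Inpp5f, chr7:128642114-128643188, lay at 97 ± 1.4, and one inside Airn, chr17:12782809-12783986, at 96.2 ± 0.46 (SD, n = 4). Further regions in introns of Inpp5f, Kcnq1 and Igf2r lay at 93.4 ± 2.61, 93.2 ± 1.25 and 92.8 ± 1.41 (SD, n = 4). The Igf2r one is shown because 2 AP-1 strings, here in capitals with a CTCF string AGNGGGCNC, lie close to its summit. In windows of the same 150 bases, the Sgce and Kcnq1 regions held 1 AP-1 string each and those of Inpp5f and Airn none. The CTCF string was in 6.94% of all shared regions within 300 bp around the summit. AP-1 proteins with BATF are known at enhancers of Th17 cells.
Igf2r intronic region, chr17:12715126-12715275, + strand: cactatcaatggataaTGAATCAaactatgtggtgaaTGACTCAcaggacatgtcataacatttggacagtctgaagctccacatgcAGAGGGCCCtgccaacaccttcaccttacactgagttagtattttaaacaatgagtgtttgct

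In the Dlk1-Meg3 cluster 2 regions away from promoters ranked high. The first, 13425 bp from a Dlk1 start site, lay at percentile 86.7 ± 3.3, and the second, 1974 bp from a Mirg start site, lay at 89.1 ± 4.72 (SD, n = 4). Both exceeded every promoter of that cluster. Of the 83 shared regions in the loci, 24.1% had an AP-1 string within 300 bp around the summit, beside 32.3% of all shared regions. The 6 strongest regions were taken after their values had been seen.

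By parental expression, 12 of 18 paternally expressed members were open, 6 of 11 maternally expressed ones, and all 3 whose imprint depends on the isoform (Gnas, Grb10 and Inpp5f). The first shares were 66.7% and 54.5%, beside 64.1% of protein-coding genes. Both groups include noncoding RNA genes, so that comparison is not like for like. The noncoding Kcnq1ot1, Nespas and Airn, all open, are paternally expressed. The noncoding H19, Meg3, Rian and Mirg, none open in all 4 replicates, are maternally expressed. Among protein-coding members, Zim1 was the only maternally expressed one not open, and all 6 paternally expressed ones not open were protein-coding. Of the 6 paternally expressed members without a promoter region, 4 lie in the Snrpn-Ube3a cluster. Of the maternally expressed ones Meg3 and Rian were open in part of the replicates, and H19, Zim1 and Mirg in none. Of 7 noncoding RNA genes 3 were open, 42.9%: Kcnq1ot1, Nespas and Airn. The share over all annotated genes was 34.7%. It includes the protein-coding genes, open at 64.1%, so the share over the other genes alone is lower than 34.7%.

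Of 30 genes that set, keep or read imprints 29 were open, 96.7%, near the 90.7% of all CpG-rich genes; 28 of the 30 were CpG-rich by the same limit. Dppa3, which protects the maternal genome in the zygote, was the 1 that was not, with no region in any replicate. Zfp57 ranked lowest of the open ones, with signal 4.03, 5.31, 6.5 and 5.66 and percentile 41.9 ± 12 (SD, n = 4). Dnmt1, the maintenance methyltransferase, lay at 86.6 ± 2.54, Trim28 at 74.6 ± 3.86 and Ctcf at 77.9 ± 2.01 (SD, n = 4). Of 34 further imprinted genes 21 were open, 61.8%, beside 64.1% of protein-coding genes. The highest were Ppp1r9a at 97.9, Osbpl5 at 94, Tssc4 at 91.1 and Copg2 at 88.2, and the lowest of the open ones were Tspan32 at 17.4, Slc22a3 at 19.2, Klf14 at 23.5 and Sfmbt2 at 50.1. By the same limit 22 of these 34 were CpG-rich. Of the CpG-rich ones Zim3, Dio3, Peg12, Mcts2, Nnat, Kcnk9 and Zdbf2 were not open, where 90.7% of all CpG-rich genes were. Of the others Tspan32, Asb4, Ddc, Peg13, Osbpl5 and Trpm5 were open, where 15.8% of all such genes were. Of 8 host or neighbouring genes of the clusters 7 were open, all except Mas1. That is 87.5%, beside 64.1% of protein-coding genes.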

How the data were processed

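ATAC-seq was deposited as 1 list of open regions per replicate for 4 replicates of Th17 cells, on mm10 per the labels. How reads were aligned and with which caller regions were found is not given in the sources used here. For every region the deposited list gives its summit, a signal value, which is the authors' enrichment per region, and −log10 p and −log10 q values from the authors' caller. The deposited display score was not used. The lists stop at a −log10 q of about 1. Region names carry KS134 in replicates 1 and 2, KS136 in replicates 3 and 4, and the words masked, dedup, sorted, 72hrs and ASTARR.insert, which are not explained.

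Regions on the autosomes, X and Y were kept, merged where they overlapped by 1 bp or more, and set against GENCODE M21 with Python 3.11.15, pandas 2.3.3, numpy 2.4.6 and pysam 0.24.0. Code for overlaps, percentiles and strings was tested on simulated lists. Sequences were read from GRCm38.p6. No test was run over the members: counts stand beside shares over all genes. The members, lists, pairs and strings were chosen with earlier results of these data known. All 32 members are named; of each further list every gene not open is named where there are 8 or fewer, otherwise the 4 highest and 4 lowest in promoter percentile, and other genes named were picked after their values were seen. Alternatives covered the promoter window, start sites, thresholds, replicates needed, merging, −log10 q ranks, the motif window and leaving out each replicate.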

Additional observations from a re-analysis of the deposited data

Results flagged for a closer look

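Of 40 sets of 4 replicate values checked, 2 had a replicate far from the other 3, where chance alone flags about 1 in 20. The Dlk1 promoter region lay at percentile 10.2 in replicate 1 and between 24.4 and 25.2 in the others. The difference between the Kcnq1ot1 and Kcnq1 promoters was 68.1 percentile points in replicate 3 and between 79.3 and 81.5 in the others, so its direction was the same in all 4.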

How the results depend on the processing

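No paired analysis was possible because the series has 1 group. The number of open members was 21 and stayed between 16 and 23 except with the strongest 50000 regions of each list, where 13 were open beside 28.7% of all genes. That setting also left 7 paternally expressed members open and, like a −log10 q of at least 10, 4 of the members whose promoter is not a control region. The median of 3 shared regions per locus was 1 with the strongest 50000 regions, 1 without flanks and 1.5 where summits of the 4 replicates had to lie within 100 bp. By construction the stricter settings keep fewer regions and the span without flanks is shorter. Within 2 kb H19 and Mirg were also open, within 500 bp Slc22a18 was not, and at the gene's 5′ end alone Igf2, Slc22a18, Mest and Grb10 were not. A −log10 q of at least 10 removed Igf2, Dlk1, Kcnq1, Slc22a18 and Grb10. Without replicate 1, Meg3 was open and the count was 22; leaving out any other replicate gave 21. By −log10 q the pair differences were 87 for Kcnq1ot1 and Kcnq1, -36.9 for Airn and Igf2r, 0.885 for Nespas and Gnas, and -25.3 for Zrsr1 and Commd1. The -36.9 takes another Igf2r start site than the signal did. With the region strongest in signal kept, a choice made after the data were seen, Airn and Igf2r differed by -12.4 and Nespas and Gnas by 19.4, and the other pairs kept 87 and -25.3. Of the 71 alternative values for the counts and medians, 64 stayed within their limits. The share was smaller for single members, 26 of 41, for motif shares, 8 of 16, and for pairs, 3 of 10. Airn, for example, moved from percentile 27.8 by signal to 52.8 by −log10 q. Depth is unknown, so a promoter with no region was not called open, which does not show that it was closed.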

Other observations

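Imprinted genes that sit inside a host gene were not alike; the genes here were picked after their values had been seen. Zrsr1, inside Commd1, was open. Nap1l5, inside Herc3, Mcts2, inside H13, and Nnat, a gene inside Blcap that is not a retrogene, had no promoter region in any replicate, with CpG ratios of 0.82, 0.97 and 0.87. All 4 host genes had open promoters: Commd1 at percentile 93.8, Herc3 at 37.7, H13 at 53.6 and Blcap at 76.8. Peg12 and Zdbf2, both paternally expressed, had a promoter region in 3 replicates each, with signal of at most 2.59 for Peg12 and between 2.74 and 3.94 for Zdbf2. Tnfrsf23, near the distal end of the Kcnq1 domain, had a promoter at percentile 99.9 ± 0.0359 (SD, n = 4).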
